A study of Homo sapiens with 16 samples.

Results

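Transcriptomes of Ccd18-Co, a human colon fibroblast line, were compared between 4 libraries from cultures given GSK-J4 and 4 from cultures given its vehicle, DMSO, after both had met the same cytokines. The libraries were chosen by their treatment labels, without use of any measured value, and make up 8 of the 16 libraries of the series. Cells of both groups were seeded at 25000 per well and went through 3 pulses of cytokines, namely IL-1B at 0.1 ng/ml together with IL-17A, OSM and TNF, these at 10 ng/ml, as the labels give them. A pulse lasted 72 h in medium without serum and was followed by 96 h of recovery in full medium. After 1 week of rest, the cultures received GSK-J4 at 10 uM or DMSO alone for 5 days, again without serum, and were then kept in full medium for 2 weeks before lysis. RNA was therefore taken long after the compound had been removed. Of the other 8 libraries, 4 came from cells without cytokines (unstimulated; the sample titles name DMSO, but the data columns name no agent) and 4 from cytokine-pulsed cells given belinostat, an inhibitor of histone deacetylases, at 250 nM. Both groups serve here as a reference for the level of a gene. Everything was measured in a single line cultured in wells, so the model holds 1 fibroblast line and no other cell of the gut wall. Nothing in the labels says that replicates came from separately thawed or passaged cultures, and the p-values measure only the spread between these samples.

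GSK-J4 inhibits KDM6A (also called UTX) and KDM6B (also called JMJD3), the enzymes that take methyl groups off lysine 27 of histone H3. The mark they remove is written by Polycomb complexes, through EZH1 or EZH2, and goes with gene repression. Fibroblasts of the gut can take on a contractile state, with the actins, myosins and calponins of smooth muscle, or an inflammatory state, with neutrophil-attracting chemokines and matrix metalloproteinases. Genes of the contractile apparatus are classical targets of serum response factor (SRF), which binds a short element named the CArG box, CC and GG around 6 A or T bases.

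The CArG box is shown first because the contractile program had the largest share of members called among the lists examined. The study displayed that program on these or sister libraries, so this choice was not independent of the data. The RefSeq table used gives the sequence before 1 annotated transcript start for each of 27305 genes, and a CArG box lay within 250 bases before that start in 312 of them (1.14%), searched on both strands. Among the 10900 genes that were both tested and matched, 108 had it (0.991%). It was present in 6 of the 112 matched genes that rose under GSK-J4 (5.36%) and in none of the 74 matched genes that fell. In the contractile program and a wider smooth muscle list, 17.6% of 34 matched and tested genes had it, whether called or not. ACTG2, MYLK and FLNA were the called genes among these carriers. ACTA2, CNN1 and SMTN were called higher but were not among the 6. MYH11, MYL9 and AOC3 had no entry in the promoter table. CAPN2 and SSPN are named after their values were seen. These shares are a description of the letters in these windows, with no test. Contractile genes are classical SRF targets, so the share in their lists does not bear on GSK-J4. The last 150 bases before that start are printed for 4 of these 6 genes, 5′ to 3′ on the gene's strand (RefSeq, GRCh38.p14), with the CArG box in capitals. They are 2 genes of the contractile program (ACTG2 and MYLK), a gene of the actin cytoskeleton (FLNA) and a potassium channel gene (KCNK3):
ACTG2, chr2:73892858-73893007, plus strand: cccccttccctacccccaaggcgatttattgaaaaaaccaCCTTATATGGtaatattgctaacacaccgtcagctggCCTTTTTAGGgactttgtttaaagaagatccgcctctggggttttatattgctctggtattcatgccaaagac
MYLK, chr3:123620549-123620698, minus strand: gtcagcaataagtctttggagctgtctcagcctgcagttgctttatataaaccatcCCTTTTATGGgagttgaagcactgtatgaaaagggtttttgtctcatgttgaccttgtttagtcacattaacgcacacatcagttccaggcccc
FLNA, chrX:154374635-154374784, minus strand: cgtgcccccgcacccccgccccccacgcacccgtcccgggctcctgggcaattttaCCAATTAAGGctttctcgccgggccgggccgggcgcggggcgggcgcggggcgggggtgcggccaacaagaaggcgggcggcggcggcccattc
KCNK3, chr2:26692572-26692721, plus strand: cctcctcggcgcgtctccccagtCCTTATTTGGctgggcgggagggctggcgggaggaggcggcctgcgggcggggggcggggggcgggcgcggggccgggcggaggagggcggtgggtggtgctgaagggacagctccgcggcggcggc
For MYLK the window lies far inside the gene as GENCODE draws it (chromosome 3, 123610049 to 123884332), before an internal start and not the start of the longest transcript, and for ACTG2 it lies within the gene's first bases (chromosome 2, 73892314 to 73919865). ACTG2 carried 2 boxes in this window and the other genes 1 each. Counts are 1 value per symbol, so the rise of MYLK cannot be assigned to any single one of its transcripts. The remaining matches among genes that rose were CAPN2 and SSPN, whose log2 fold changes were 0.16 and 0.38.

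The 8 libraries held 16.7 to 18.8 M estimated counts. All 4 GSK-J4 libraries (16.7 to 17.5 M) were below all 4 vehicle libraries (18.4 to 18.8 M), and the part of this gap in the results was not tested. DESeq2 called 249 of 13703 tested genes (1.82%) at an adjusted p under 0.05, of which 141 were higher (1.03%) and 108 lower (0.788%) under GSK-J4. The changes were small, as 168 of the 249 were within 0.5 on the log2 scale, and the median was 0.44 among the genes that rose and -0.32 among those that fell. Only 5 genes (0.0365%) were beyond 1.5, namely ATF3, EPB41, KYNU and KIAA0319 upward and RN7SL96P downward. EdgeR's quasi-likelihood test called 91 of 14415 genes (0.631%), and 89 of them were called by DESeq2 in the same direction (57 higher and 32 lower). Libraries are named by group and replicate number. Leaving out vehicle 14 gave 141 calls by DESeq2, vehicle 15 gave 134, GSK-J4 22 gave 149 and GSK-J4 23 gave 140. Leaving out vehicle 13 gave 10 calls beyond 1.5. A set of 79 genes was called in all 15 fits that were run, 53 of them higher and 26 lower.

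**Figure D1:**
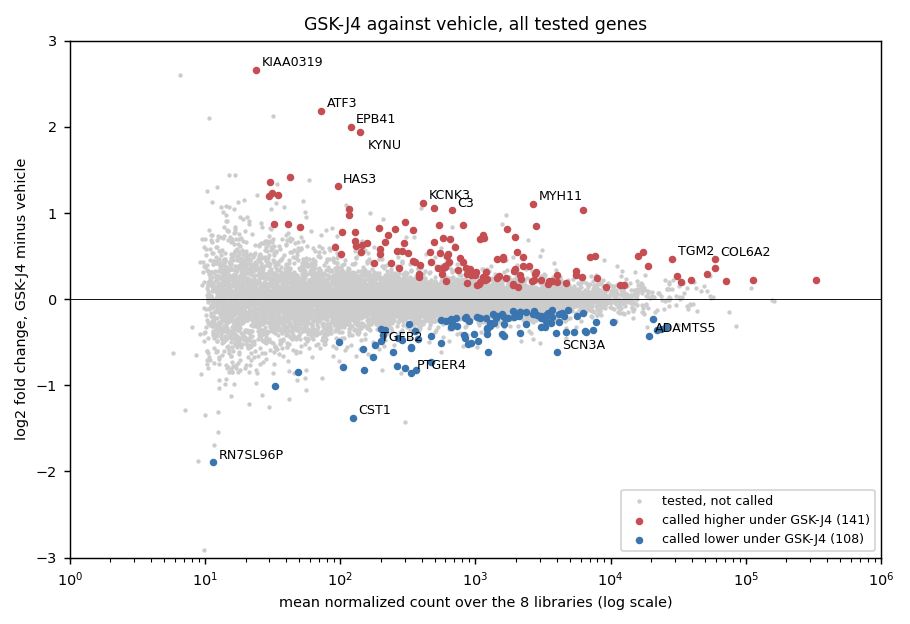
Log2 fold change (GSK-J4 minus vehicle, vertical axis) against the mean normalized count over the 8 libraries (horizontal axis, log scale) for the tested genes, each a point. The 141 genes called higher are red and the 108 called lower blue, most of them within 1 of the zero line, and 1 tested gene that was not called lies outside the axes.

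**Figure D2:**
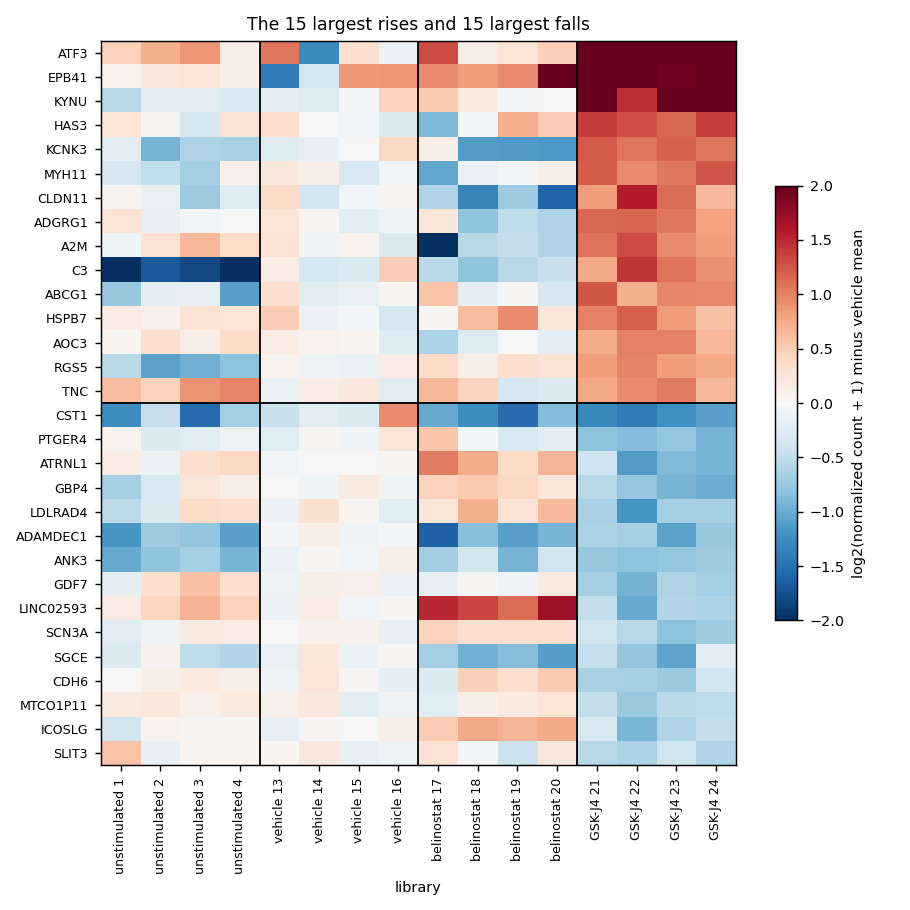
The 15 largest rises (upper block) and 15 largest falls (lower block) among called genes with a mean of 50 or more normalized counts and separate groups, in the 16 libraries. Colour gives log2(normalized count + 1) minus the vehicle mean, cut at 2 in either direction, and the GSK-J4 libraries are red above and blue below, as the choice of the genes requires.

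The genes that encode the targets of the compound were examined first. KDM6A (ENSG00000147050.18, chromosome X, 44873188 to 45112779) stood at 596, 599.8, 614 and 477 normalized counts (counts divided by the library's size factor) in vehicle replicates 13 to 16 and at 573, 511, 576 and 594 in GSK-J4 replicates 21 to 24. These ranges overlapped, and the log2 fold change was -0.02 (SE 0.10). KDM6B (ENSG00000132510.11, chromosome 17, 7834217 to 7854796) stood at 1356, 1263, 1238 and 1380 in vehicle and at 1195, 1157, 1123 and 1214 under GSK-J4. Every GSK-J4 library was below every vehicle library for KDM6B, but the gene was not called (log2 fold change -0.16, SE 0.08, adjusted p = 0.452). The methyltransferases EZH1 (0.08, SE 0.07) and EZH2 (0.21, SE 0.21) were not called either. In a list of 12 genes for these enzymes and their Polycomb partners, none was called (median log2 fold change 0.0004, against -0.0021 over all tested genes). Of 15 other histone demethylase genes, none was called, and 13 had a value below 0, as did 6952 of all 13703 tested genes. The HOX genes, classical Polycomb targets, gave 21 tested members and no call (median -0.07). Of all tested genes 1.82% were called, so no call in lists this short is close to the general share. Transcript levels do not measure enzyme activity, and the histone mark itself was not measured in these libraries.

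Contractile genes rose. Of the 9 genes that the study displayed for contractile stroma, 8 were called higher (88.9%, against 1.03% of all genes). GREM1 was not called, and the median log2 fold change of the 9 was 0.50. The study displayed these genes on these or sister libraries, so the count is not independent evidence of their direction. MYH11 (ENSG00000133392.18, chromosome 16, 15703135 to 15857028), the myosin heavy chain of smooth muscle, stood at 1975, 1862, 1360 and 1633 normalized counts in the vehicle libraries and at 3896, 3253, 3513 and 4033 under GSK-J4. The lowest GSK-J4 library was above the highest vehicle library, and the level was a little over 2 times that of vehicle. Its log2 fold change was 1.11 (SE 0.22, adjusted p = 0.000172). ACTA2, smooth muscle alpha-actin, went from 13250, 16088, 13989 and 13242 to 20980, 21660, 20658 and 19658, a log2 fold change of 0.55 (SE 0.11). ACTG2, the gamma-actin of enteric smooth muscle, went from 6146, 6808, 6283 and 6370 to 8942, 9304, 9293 and 8650. Its groups did not overlap either, but the call (adjusted p = 0.00556) was lost under edgeR and in the fit with surrogate variables. ACTA2 and ACTG2 are close paralogs whose reads kallisto divides between them, which adds an error beyond the SE given here.

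The kinase and the light chain that drive contraction followed. MYLK, myosin light chain kinase, stood at 14056, 14190, 13237 and 11445 in vehicle and at 18682, 18463, 19116 and 18509 under GSK-J4, where the 4 libraries lay close together (0.50, SE 0.07, adjusted p = 2.06e-08). MYL9, the regulatory light chain, stood at 17344, 17324, 16154 and 14762 and 21515, 22388, 21842 and 20172 (0.39, SE 0.11). EdgeR did not call MYL9, and the DESeq2 call ended in the absence of vehicle 15 (0.38), vehicle 16 (0.34), GSK-J4 21 (0.39), GSK-J4 22 (0.37) or GSK-J4 23 (0.38). AOC3, an amine oxidase of smooth muscle and vessels, stood at 636, 599.8, 592 and 481 in vehicle and 959, 1161, 1158 and 912 under GSK-J4 (0.86, SE 0.13, adjusted p = 2.06e-08). RGS5, a brake on G protein signalling known from pericytes, stood at 403, 359, 349 and 429 and 686, 762, 689 and 652 (0.86, SE 0.10, adjusted p = 9.25e-14). NOTCH3, the Notch receptor of mural cells, went from 745, 639, 599.9 and 567 to 984, 839, 869 and 875 (0.48, SE 0.09). For AOC3, RGS5 and NOTCH3 no GSK-J4 library was as low as any vehicle library. GREM1, a secreted BMP antagonist, spread widely, with 2738, 1499, 1108 and 971 in vehicle and 2373, 2804, 2080 and 1610 under GSK-J4, and vehicle replicate 13 lay among the GSK-J4 values (0.49, SE 0.51).

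**Figure D3:**
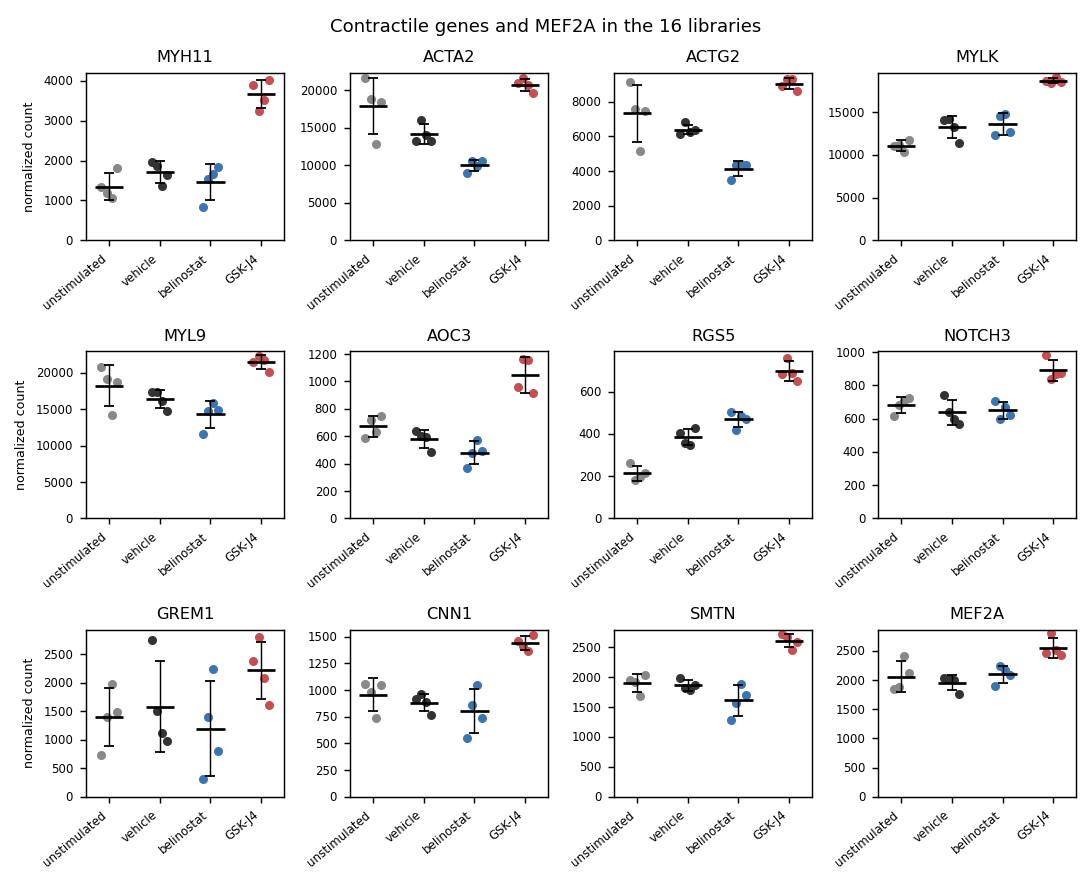
Normalized counts (vertical axes, from 0) of 12 genes in the 16 libraries, 4 per group. Each point is a library, and the bars give the mean and SD. The GSK-J4 libraries lie above all vehicle libraries in every panel but that of GREM1.

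A wider list of smooth muscle genes moved less. It held 33 tested genes for thin filaments, costameres and calcium handling, none of them in the study's program. Of these, 4 were called higher (12.1%, against 1.03% of all genes called higher) and none lower. The median log2 fold change was 0.13. The groups did not overlap for 15 of the 33 with GSK-J4 higher, where 5.43% of all tested genes were so, and for 1 with GSK-J4 lower, where 4.42% were. CNN1, calponin, went from 918, 959, 885 and 769.9 to 1463, 1417, 1368 and 1519 (0.71, SE 0.15, adjusted p = 0.00048). SMTN, smoothelin, went from 1984, 1821, 1781 and 1869 to 2719, 2676, 2462 and 2589 (0.49, SE 0.09, adjusted p = 6.81e-05). Both genes were separated in all libraries, and both were called in each of the 15 fits. PDLIM7, a LIM-domain protein of actin bundles, rose by 0.32 (SE 0.08), but edgeR did not call it and DESeq2 lost it in the absence of vehicle 15 (0.32), vehicle 16 (0.30), GSK-J4 22 (0.31) or GSK-J4 24 (0.31). FLNA, the actin crosslinker filamin A, rose by 0.21 (SE 0.06), and its call was lost under edgeR and without any 1 of the 8 libraries. TAGLN, transgelin, named after its values were seen, was higher in all GSK-J4 libraries but not called (0.31, SE 0.14, adjusted p = 0.41).

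Most of the factors that drive these genes were not called. Among 14 tested genes for SRF, its coactivators and related regulators, MEF2A alone was called (7.14%, against 1.82% of all genes). It stood at 2034, 2021, 2003 and 1758 in vehicle and 2464, 2814, 2511 and 2428 under GSK-J4 (0.39, SE 0.09, adjusted p = 0.00136). MEF2A encodes a transcription factor of muscle genes. SRF (0.02, SE 0.05) and its coactivator MYOCD (-0.18, SE 0.06), both named after their values were seen, were not called. Of 25 tested channel and receptor genes that set smooth muscle tone, KCNK3 was the single call (4.0%, against 1.82% of all genes). KCNK3 (ENSG00000171303.8, chromosome 2, 26692722 to 26733420), a background potassium channel, stood at 212, 228, 254 and 341 in vehicle and at 599, 536, 577 and 537 under GSK-J4 (1.12, SE 0.24, adjusted p = 0.00067). The 4 GSK-J4 libraries all held more than 1.5 times the highest vehicle library. NOTCH3 was the only call among 11 tested Notch pathway genes, and RGS5 the only one among 8 tested pericyte markers, whose medians were 0.06 and 0.03. Those were 9.09% and 12.5% of the lists, against 1.82% of all genes. A single call in a list this short describes the gene and not the list.

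The inflammatory fibroblast program was not called in any member. Of its 11 genes, chosen by the study on these or sister libraries, 0 were called by DESeq2 and 0 by edgeR, and 2 had an unadjusted p under 0.05. Over all genes, DESeq2 called 1.82% and edgeR 0.631%, and 1476 of 13703 had an unadjusted p under 0.05. No call in a list of 11 is therefore close to the general share. The median log2 fold change was 0.08, with 6 values above 0 and 5 below. The neutrophil-attracting chemokines gave -0.25 for CXCL1 (SE 0.13), -0.32 for CXCL2 (SE 0.30), -0.20 for CXCL3 (SE 0.19), 0.27 for CXCL5 (SE 0.23) and -0.10 for CXCL8 (SE 0.21). Reads of CXCL1, CXCL2 and CXCL3 are partly shared, so their split is uncertain. CXCL8 stood at 287, 319, 369 and 609 in vehicle and 259, 415, 454 and 350.1 under GSK-J4, and vehicle replicate 16 was the highest of the 8. MMP3, stromelysin, stood at 1063, 905, 972 and 1498 in vehicle and at 1881, 2513, 1989 and 1765 under GSK-J4. All GSK-J4 libraries of MMP3 were above all vehicle libraries, but the gene was not called (0.88, SE 0.36, adjusted p = 0.298). That SE pools the spread of all 16 libraries, not of these 8 alone. MMP3 stood at 1110 ± 267 in vehicle and 2037 ± 330 under GSK-J4. The groups outside the comparison stood at 580 ± 377 (belinostat) and 366 ± 123 (unstimulated; SD, n = 4). MMP3 was called higher in the fit of only the 8 libraries and in the fit with surrogate variables. MMP1 (0.08, SE 0.30), the type VII collagen gene COL7A1 (0.10, SE 0.11) and the surface genes PDPN (-0.02, SE 0.23), THY1 (0.23, SE 0.12) and FAP (0.15, SE 0.24) were not called.

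Of 24 tested collagen chain genes 7 were called, all higher (29.2%, against 1.82% of all tested genes called in either direction), and the median log2 fold change was 0.13. COL6A1 and COL6A2, neighbouring genes for chains of the beaded-filament collagen VI, were called by both DESeq2 and edgeR. COL6A2 (ENSG00000142173.17, chromosome 21, 46098112 to 46132848) stood at 51079, 49017, 47363 and 50319 in vehicle and at 63981, 74633, 68016 and 66270 under GSK-J4 (0.46, SE 0.05, adjusted p = 8.6e-16). COL6A1 (ENSG00000142156.16, chromosome 21, 45981770 to 46005050) stood at 53198, 52637, 50418 and 52071 and 63060, 73373, 65878 and 66147 (0.37, SE 0.06, adjusted p = 3.72e-06). Neither gene overlapped between the groups, and GSK-J4 replicate 22 was the highest for both. COL8A1, a short-chain collagen of vessel walls, rose from 534, 566, 484 and 477 to 740.4, 763, 738 and 732 (0.53, SE 0.11). COL4A5, a basement membrane chain, rose by 0.60 (SE 0.16), and its DESeq2 call ended in the absence of vehicle 13 (0.55), vehicle 14 (0.53) or GSK-J4 21 (0.57), and edgeR made none. The fibrillar chains COL1A2 (0.22, SE 0.04) and COL3A1 (0.22, SE 0.06) and the basement membrane chain COL4A2 (0.20, SE 0.05) were called by DESeq2 but not by edgeR. COL3A1 and COL4A2 each lost the DESeq2 call in 5 of the 8 fits without 1 library, at 0.19 to 0.22 and 0.17 to 0.21.

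Among 42 tested genes for other matrix proteins and their crosslinkers, 4 were called higher and 1 lower (11.9% in all, against 1.82% of all genes). FN1, fibronectin, went from 48543, 48835, 46282 and 42873 to 57942, 60231, 53229 and 56512 (0.29, SE 0.06, adjusted p = 0.000214). LOXL3, a lysyl oxidase that crosslinks collagen and elastin, went from 694, 706, 629.7 and 612 to 798, 804, 862 and 870 (0.34, SE 0.07). TNC, tenascin C, a matrix glycoprotein of remodelling tissue, went from 1820, 2206, 2301 and 1696 to 3402, 3828, 4087 and 3159 (0.85, SE 0.22), a call that ended in the absence of vehicle 13 (0.81), vehicle 16 (0.78), GSK-J4 22 (0.82) or GSK-J4 23 (0.79). The basement membrane gene NID2 rose by 0.31 (SE 0.09) and LAMA2, the laminin chain of muscle basement membrane, fell by 0.27 (SE 0.08), but edgeR called neither, and DESeq2 lost NID2 in 4 and LAMA2 in 7 of the 8 fits without 1 library (0.25 to 0.31 and -0.29 to -0.25). TGM2, tissue transglutaminase, which crosslinks matrix proteins, was among the 10 most abundant called genes. It stood at 23431, 21701, 22860 and 27921 in vehicle and 33181, 34613, 31144 and 34021 under GSK-J4 (0.47, SE 0.10, adjusted p = 0.000693), and no GSK-J4 library was as low as the highest vehicle library. IGFBP5, a secreted binding protein of insulin-like growth factors and the most abundant called gene, rose by 0.22 (SE 0.07), a call lost under edgeR and without any 1 of the 8 libraries (0.19 to 0.24). EPAS1, the hypoxia-inducible factor HIF-2 alpha, rose by 0.27 (SE 0.06) and was not called by edgeR. It was the 1 call among 22 tested hypoxia and glycolysis genes (4.55%, against 1.82% of all genes).

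HAS3, a hyaluronan synthase, stood at 69.5, 54.6, 52.2 and 44.3 in vehicle and at 145, 135, 122 and 144 under GSK-J4 (ENSG00000103044.11, chromosome 16, 69105653 to 69118719). Each GSK-J4 library held more than 1.5 times the highest vehicle library (1.31, SE 0.25, adjusted p = 0.000118). None of the other 9 tested hyaluronan genes was called, so that 10.0% of that list was called, against 1.82% of all genes. Among 30 tested matrix proteases and inhibitors 3 were called lower (10.0%, against 0.788% of all genes called lower) and none higher. The median was 0.03, and 20 values were above 0. SERPINE2, an inhibitor of thrombin and plasminogen activators, went from 4594, 5505, 5535 and 5337 to 4263, 3924, 4008 and 3964 (-0.38, SE 0.08, adjusted p = 0.000389). The aggrecanase ADAMTS5 fell by 0.42 (SE 0.12) and the related protease ADAMTS9 fell by 0.22 (SE 0.05), both without a call by edgeR. DESeq2 lost ADAMTS5 in 7 of the 8 fits without 1 library (-0.43 to -0.38) and ADAMTS9 without vehicle replicate 15 (-0.19) or GSK-J4 replicate 23 (-0.21).

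Of 27 tested genes of the TGF-beta pathway, 3 were called, all lower (11.1%, against 0.788% of all genes called lower), and the median log2 fold change was -0.04. In the fit of only the 2 groups and in that with surrogate variables, 4 were called lower and 1 higher, and edgeR called 1, lower. TGFB2, a ligand (ENSG00000092969.12, chromosome 1, 218345336 to 218444619), stood at 199, 229, 213 and 219 in vehicle and at 162, 168, 130 and 137 under GSK-J4 (-0.53, SE 0.12, adjusted p = 0.00131). The highest GSK-J4 library was below the lowest vehicle library. The other calls were feedback inhibitors of the pathway. LDLRAD4 went from 349, 467, 394 and 321 to 242, 166, 236 and 238 (-0.80, SE 0.19), but edgeR did not call it and DESeq2 lost it in the absence of vehicle 14 (-0.69) or GSK-J4 22 (-0.68), its lowest library. SMAD7 fell by 0.32 (SE 0.10), a call lost under edgeR and in 7 of the 8 fits without 1 library (-0.35 to -0.27). In the BMP pathway ID3, a target gene that blocks basic helix-loop-helix factors, was the single call among 21 (4.76%, against 1.82% of all genes). It stood at 835, 834, 987 and 1188 in vehicle and 705, 689, 675 and 746 under GSK-J4 (-0.45, SE 0.10, adjusted p = 0.00249). GDF7, a BMP ligand outside that list, was among the 15 largest falls, from 548, 636, 629.7 and 542 to 365, 304, 388 and 365 (-0.73, SE 0.14, adjusted p = 5.07e-05). Of 27 tested WNT pathway genes the 1 call was NKD1, a feedback inhibitor (3.7%, against 1.82% of all genes). It rose by 0.61 (SE 0.15), but edgeR did not call it and DESeq2 lost it in the absence of vehicle 13 (0.55), vehicle 15 (0.58) or GSK-J4 21 (0.55).

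A stress gene was among the largest rises. ATF3 (ENSG00000162772.18, chromosome 1, 212565334 to 212620777), an early stress-induced repressor, stood at 47.6, 8.62, 27.9 and 20.3 in vehicle and at 108, 103, 155 and 108 under GSK-J4 (2.18, SE 0.35, adjusted p = 8.55e-07). The lowest GSK-J4 library was over 2 times the highest vehicle library, and GSK-J4 replicate 23 stood above the other libraries of its group. ATF5, a related factor of the integrated stress response, went from 231, 218, 249 and 223 to 383, 357, 376 and 330.2 (0.65, SE 0.16) and was not called by edgeR. These were the 2 calls among 23 tested genes (8.7%, against 1.82% of all genes) of that response. Its median was 0.19, 21 values were above 0, and 11 of the 23 did not overlap between the groups with GSK-J4 higher (5.43% over all genes), none with GSK-J4 lower. GDF15, a secreted stress signal, and PHGDH, which opens serine synthesis, were among these 11, were named after their values were seen and were not called (GDF15 1.06, SE 0.33, and PHGDH 0.63, SE 0.27). KLF4, an immediate early factor, rose by 1.19 (SE 0.31) from low levels of 19, 23, 14 and 16.6 to 44.8, 44, 48.8 and 28.3, a call lost under edgeR and in 5 of the 8 fits without 1 library (1.09 to 1.16). KLF4 and ATF3 were the 2 calls among 22 tested AP-1 and immediate early genes (9.09%, against 1.82% of all genes, median 0.12).

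KYNU (ENSG00000115919.15, chromosome 2, 142877657 to 143055833), kynureninase, an enzyme of tryptophan breakdown, stood among the largest rises too. It was at 50.4, 47.9, 55.9 and 79.3 in vehicle and at 233, 162, 239.8 and 261 under GSK-J4 (1.94, SE 0.20, adjusted p = 5.62e-19). The lowest GSK-J4 library was 2 times the highest vehicle library. No other of the 13 tested genes for the kynurenine pathway and the aryl hydrocarbon receptor was called (7.69% with KYNU, against 1.82% of all genes), and their median was 0.03. Among 23 tested NRF2 and iron genes, SRXN1, which repairs peroxiredoxins, went from 1439, 1246, 1314 and 1405 to 2019, 1757, 1985 and 1706 (0.47, SE 0.08, adjusted p = 1.02e-05), and TFRC, the transferrin receptor, from 2437, 2424, 2522 and 2615 to 3191, 2982, 3171 and 3113 (0.32, SE 0.06, adjusted p = 0.000172). The other 21 were not called, so that 8.7% of this list was called, against 1.82% of all genes.

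The p53 and cell cycle genes gave calls in both directions. CDKN1A, the cell cycle inhibitor p21, went from 5801, 5581, 5801 and 6206 to 8393, 8180, 8605 and 7662 (0.49, SE 0.10, adjusted p = 0.000268). MDM2, the ligase that degrades p53 and is itself a p53 target, went from 1747, 1675, 1681 and 1725 to 2130, 2146, 2079 and 2217 (0.33, SE 0.04, adjusted p = 1.41e-12). Its groups were narrow and far apart relative to their spread. CDKN2B, another cell cycle inhibitor, fell by 0.46 (SE 0.13), a call lost under edgeR and in 6 of the 8 fits without 1 library (-0.46 to -0.43). These were the 3 calls among 20 tested genes (15.0%, against 1.82% of all genes). Among 22 tested proliferation genes 3 were called higher (13.6%, against 1.03% of all genes called higher), with a median of 0.28. TYMS, thymidylate synthase, went from 172, 139, 172 and 181 to 260.4, 230.4, 265 and 297 (0.66, SE 0.11, adjusted p = 1.92e-06). MKI67 stood at 19, 20.1, 21.4 and 32.3 in vehicle and 51.9, 86, 38.6 and 72.3 under GSK-J4 (1.42, SE 0.36), low in both groups. TOP2A went from 80, 83.4, 84.8 and 55.3 to 132, 141, 97.5 and 149.9 (0.78, SE 0.21). Both MKI67 and TOP2A lost the call under edgeR and in 5 of the 8 fits without 1 library, at 1.22 to 1.38 and 0.65 to 0.81.

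C3 (ENSG00000125730.18, chromosome 19, 6677704 to 6730562), the central complement component, stood at 473, 337, 351 and 602 in vehicle and at 734, 1157, 908 and 811 under GSK-J4 (1.03, SE 0.18, adjusted p = 7.95e-06). The groups did not overlap, and unstimulated cells held 109 ± 22.2 (SD, n = 4), below both. A2M, a broad protease inhibitor, rose by 1.04 (SE 0.30), but the call was lost under edgeR and in 7 of the 8 fits without 1 library (0.95 to 1.11). GBP4, an interferon-induced GTPase, went from 468, 437, 526 and 438 to 312, 271, 244 and 234 (-0.82, SE 0.16, adjusted p = 8.52e-05). It was the 1 call among 36 tested interferon genes and guanylate-binding protein genes (2.78%, against 1.82% of all genes, median -0.10). ICOSLG, a costimulatory ligand for T cells, fell by 0.57 (SE 0.12). ADAMDEC1, a protease-like gene of gut stroma, went from 129, 144, 125 and 129 to 84.4, 81.9, 62 and 77.6 (-0.79, SE 0.17, adjusted p = 0.000496). CSF1, the macrophage growth factor, fell by 0.19 (SE 0.05), the 1 call among 18 tested chemokines and cytokines (5.56%, against 1.82% of all genes). That call was lost under edgeR and in 7 of the 8 fits without 1 library (-0.20 to -0.17). None of 18 tested NF-kB subunits, inhibitors and targets was called by DESeq2 (1.82% of all genes were called), and their median was 0.01.

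Prostaglandin genes moved in both directions. The receptor PTGER4 (ENSG00000171522.6, chromosome 5, 40679915 to 40693735) stood at 359, 442, 408 and 512 in vehicle and at 244, 234, 249.9 and 224 under GSK-J4 (-0.85, SE 0.16, adjusted p = 6.76e-05), with no overlap. PTGR1, a reductase that inactivates prostaglandins and leukotrienes, went from 1283, 1178, 1120 and 1290 to 1659, 1872, 1722 and 1500 (0.47, SE 0.08, adjusted p = 1.75e-06). The prostacyclin synthase gene PTGIS (0.81, SE 0.22) and the prostaglandin D synthase gene PTGDS (0.78, SE 0.23) were called higher by DESeq2 but not by edgeR, each with 7 of 8 calls lost when 1 library was left out (0.69 to 0.85 and 0.58 to 0.86). In all, 4 of 20 tested members were called (20.0%, against 1.82% of all genes). CST1, a secreted cystatin, gave the largest fall among called genes with at least 50 normalized counts and no overlap. It stood at 122, 142, 138 and 320 in vehicle and 67.1, 62.5, 70.1 and 77.6 under GSK-J4 (-1.38, SE 0.29, adjusted p = 0.00057). Vehicle replicate 16 was far above the other vehicle libraries. Cystatin genes have near-identical copies, so their counts are uncertain.

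**Figure D4:**
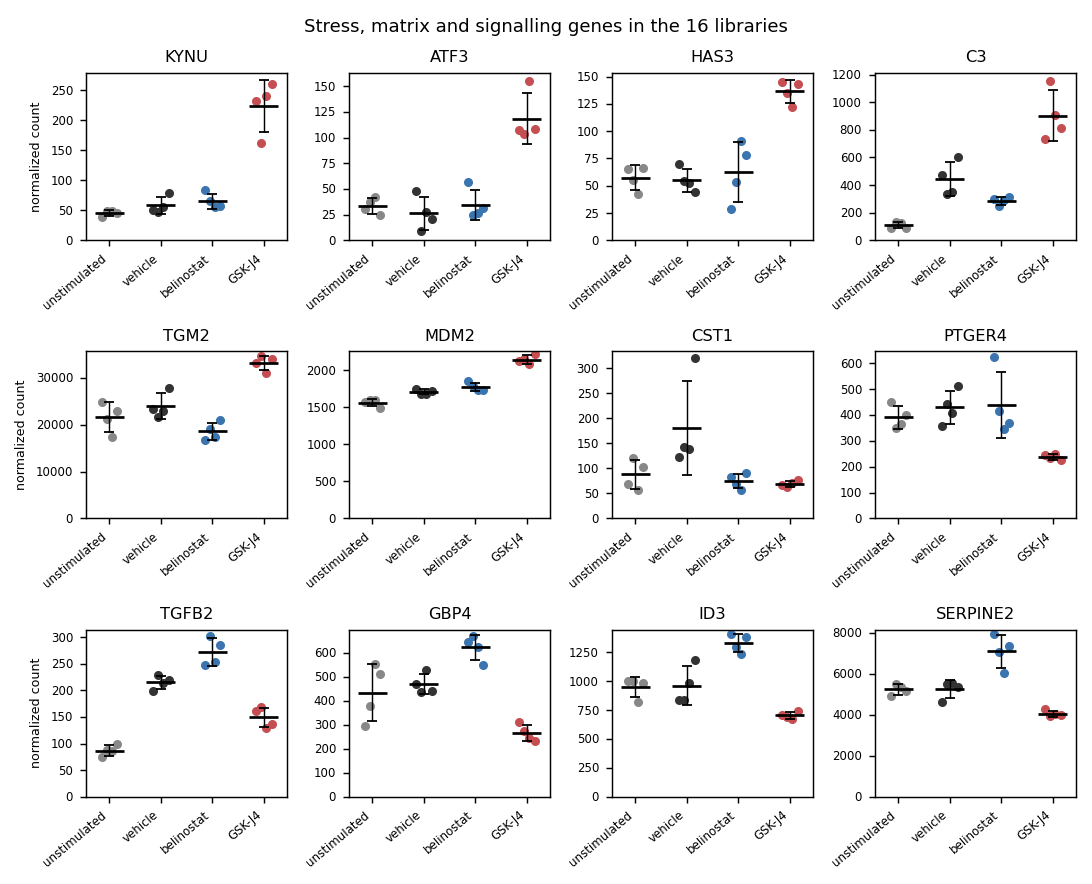
Normalized counts (vertical axes, from 0) of 12 genes in the 16 libraries, 4 per group. Each point is a library, and the bars give the mean and SD. From KYNU to MDM2 the GSK-J4 libraries lie above all vehicle libraries, and from CST1 to SERPINE2 below them.

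The remaining large changes fell into no list. EPB41, a protein that links the membrane to actin and spectrin, stood at 14.3, 30.7, 72.7 and 73.8 in vehicle and 159.7, 161, 152 and 292 under GSK-J4 (2.00, SE 0.51, adjusted p = 0.00973). Its call was lost without vehicle replicate 14 (1.84) or GSK-J4 replicate 24 (1.72), its highest library. CLDN11, a tight junction claudin, rose by 1.06 (SE 0.23), ADGRG1, an adhesion receptor, by 1.05 (SE 0.19), and ABCG1, a cholesterol exporter, by 0.98 (SE 0.22). HSPB7, a small heat shock protein of muscle, went from 290.3, 191, 203 and 163 to 415, 475, 374 and 312 (0.90, SE 0.19). KIAA0319 was low in vehicle, at 9.52, 0, 4.66 and 12, and stood at 30.5, 31.7, 70.1 and 33.5 under GSK-J4 (2.66, SE 0.64), a call lost under edgeR, with a filter on low counts and without GSK-J4 replicate 23 (2.28). Downward, the sodium channel gene SCN3A went from 4813, 5127, 5139 and 4291 to 3651, 3303, 2741 and 2943 (-0.62, SE 0.10, adjusted p = 4.83e-07), and ANK3, the ankyrin that anchors such channels, from 303, 343, 320.4 and 366 to 196, 187, 193 and 202 (-0.77, SE 0.12, adjusted p = 1.2e-07). Neither gene overlapped between the groups. ATRNL1 fell by 0.82 (SE 0.16), the noncoding RNA LINC02593 by 0.67 (SE 0.15) and CDH6, a cadherin, by 0.61 (SE 0.14, not called by edgeR).

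SGCE, a sarcoglycan, fell by 0.61 (SE 0.18) and SLIT3, a guidance ligand, fell by 0.56 (SE 0.16), both without a call by edgeR. DESeq2 lost SGCE in 6 and SLIT3 in all of the 8 fits without 1 library (-0.66 to -0.49 and -0.61 to -0.48). RN7SL96P, a pseudogene copy of a signal recognition particle RNA, stood at 22.8, 16.3, 14.9 and 18.4 and 2.03, 4.1, 9.14 and 4.19 (-1.89, SE 0.47). Its call ended in the absence of GSK-J4 21 (-1.64), and without vehicle 15 (-1.98) it received no adjusted p. The reads of RN7SL96P may belong to near-identical copies. KIT, a receptor of interstitial cells of Cajal and mast cells, fell by 0.26 (SE 0.07), but edgeR did not call it and DESeq2 lost it in the absence of vehicle 15 (-0.24), vehicle 16 (-0.22), GSK-J4 22 (-0.24) or GSK-J4 23 (-0.24).

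**Figure D5:**
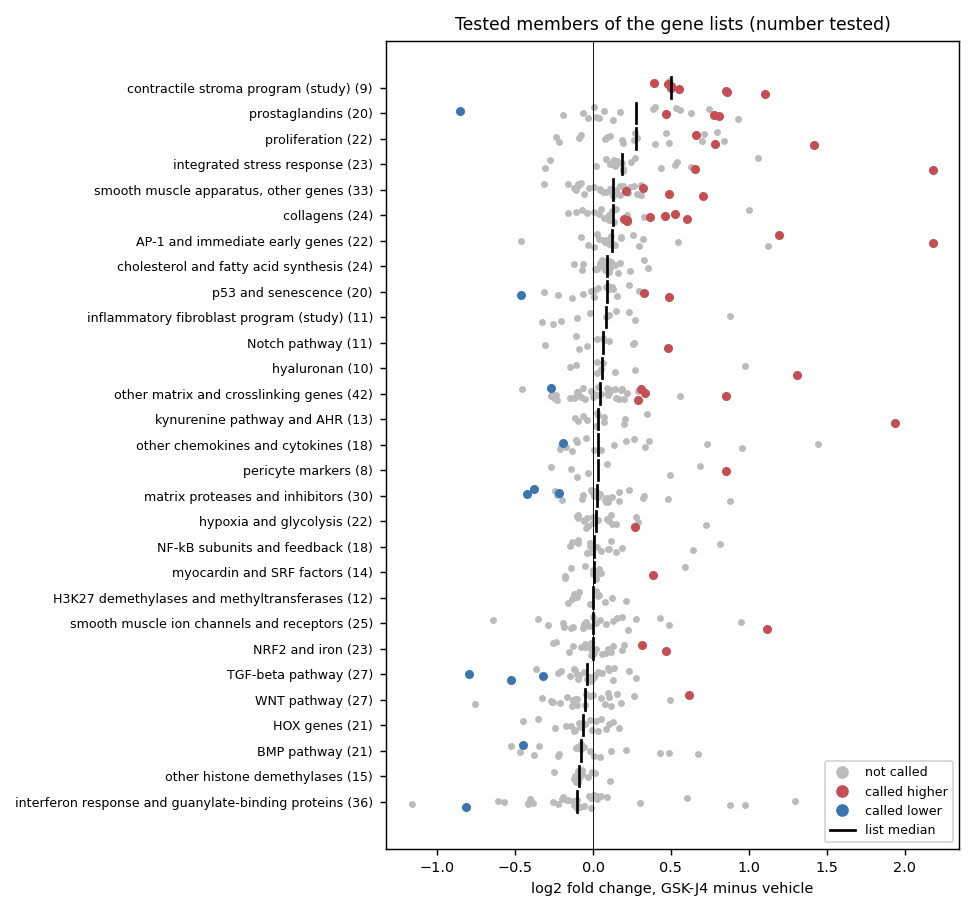
Log2 fold change (GSK-J4 minus vehicle, horizontal axis) of the tested members of 29 gene lists, 1 row per list with the number tested. Red and blue points are members called higher and lower, grey points were not called, and the black bar is the list median. The contractile stroma program has the highest median at 0.50.

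The levels under GSK-J4 were also set against the other 2 groups, in comparisons that use the same GSK-J4 libraries. Against unstimulated cells, which differ by the cytokines and by GSK-J4, 939 of 15732 tested genes were called (5.97%), 536 higher and 403 lower. Of the contractile program, 5 of 9 genes were called higher than in unstimulated cells and none lower. They were AOC3, MYH11, MYLK, NOTCH3 and RGS5. ACTA2 stood at 17925 ± 3688 in unstimulated cells, 14142 ± 1344 with vehicle and 20739 ± 833 with GSK-J4 (SD, n = 4), and GSK-J4 and unstimulated cells did not differ by the test (0.21, SE 0.11, adjusted p = 0.374). Of the inflammatory program, 7 of 11 genes were called higher than in unstimulated cells, among them CXCL5 (3.20, SE 0.30), MMP3 (2.48, SE 0.36) and CXCL8 (2.25, SE 0.22). TGFB2 stood at 86.3 ± 9.95 in unstimulated cells, 215 ± 12.6 in vehicle and 149 ± 18.4 under GSK-J4 (SD, n = 4), and the GSK-J4 level was called above the unstimulated one (0.79, SE 0.13). ANK3 stood at 184 ± 18.4 in unstimulated cells and 195 ± 6.24 under GSK-J4 (SD, n = 4), a difference of 0.08 (SE 0.12) that was not called. KYNU (2.30, SE 0.20) and C3 (3.06, SE 0.19) were called above unstimulated cells.

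Belinostat-treated cells had met the same cytokines, so that this comparison sets the compounds against each other. The groups differed in 1795 of 14717 genes (12.2%), of which 885 had the higher level under GSK-J4 and 910 the higher level under belinostat, and in 2143 without belinostat replicate 17, which stood apart from its group. Of the contractile program, 8 of 9 genes were higher under GSK-J4 than under belinostat, with a median difference of 0.90, and GREM1 was not called. MYH11 stood at 3674 ± 357 under GSK-J4 and 1465 ± 445 under belinostat (SD, n = 4), a difference of 1.33 (SE 0.22, adjusted p = 8.23e-08). ACTG2 stood at 9047 ± 314 and 4146 ± 442 (1.13, SE 0.12). Of the inflammatory program, 4 of 11 genes were higher under GSK-J4, namely CXCL8 (0.65), MMP1 (1.66), MMP3 (1.81) and THY1 (0.43), and none was lower. COL6A2 differed by 1.14 (SE 0.05) and COL6A1 by 1.05 (SE 0.06), both higher under GSK-J4. LINC02593 stood at 134 ± 20.1 under GSK-J4 and 574 ± 96.1 under belinostat (SD, n = 4), a difference of -2.10 (SE 0.15). EPB41 (0.69, SE 0.50), HSPB7 (0.42, SE 0.19), CST1 (-0.11, SE 0.30), ADAMDEC1 (0.33, SE 0.18) and ANK3 (-0.18, SE 0.12) were not called between the compounds. A missed threshold does not show that the compounds act alike on these genes.

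The label of the cells was checked on marker genes. Of 13 fibroblast markers, 12 reached 10 normalized counts in at least 1 of the 8 libraries, and together they took 2.94 to 3.06% of the counts in vehicle and 3.10 to 3.24% under GSK-J4. PI16, the 1 exception, was below 10 throughout. Leukocyte markers summed to at most 0.00306% of the counts in any of the 8 libraries, and PTPRC, CD3E and LYZ were among the 8 of 10 that stayed below 10 normalized counts. Epithelial markers summed to 0.00837 to 0.0113%, with 6 of 10 below 10, EPCAM and VIL1 among them. Endothelial markers summed to 0.0417 to 0.0507%, with 5 of 9 below 10, PECAM1, CDH5 and KDR among them. Glial and neuronal markers summed to 0.0109 to 0.0148%, with 6 of 9 below 10. The remaining markers of these lists, TEK, KRT8 and KRT18 among them, reached 10 normalized counts in at least 1 of the 8 libraries. They supplied nearly all of each sum, so these lists were not silent as a whole. The endothelial list summed to 7713 to 8865 normalized counts in vehicle and 7370 to 8098 under GSK-J4. The epithelial list summed to 1558 to 1972 and 1497 to 1717, and the glial and neuronal list to 2014 to 2606 and 1895 to 2254. The fall of KIT stood beside 2 other tested markers of interstitial cells of Cajal that were not called. In bulk libraries, a change in the share of cells that express a gene and a change in RNA per cell cannot be told apart. None of the 24 tested genes of cholesterol and fatty acid synthesis was called, where 1.82% of all genes were called.

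Nuclear copies of mitochondrial genes were a class chosen after its values were seen. Of 36 tested copies 9 were called, all lower (0.788% of all tested genes were called lower), the median log2 fold change was -0.31, and 34 values were below 0. MTCO1P11 (ENSG00000224083.1, chromosome 9, 5096666 to 5098193), a copy of a cytochrome oxidase gene and among the 15 largest falls, stood at 188, 206, 150 and 163 in vehicle and at 126, 104, 119.9 and 123 under GSK-J4 (-0.58, SE 0.13, adjusted p = 0.00256). The class took 1.51 to 1.73% of the counts in vehicle and 1.15, 1.55, 1.20 and 1.20% in GSK-J4 replicates 21 to 24, so that replicate 22 lay inside the vehicle range. Unstimulated cells held 1.94 to 2.26%. Such copies share reads with the mitochondrial genome and with each other, and the part of these reads in the other results was not tested beyond a fit without them, which called 237 genes.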

How the data were processed

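RNA from 16 cultures of Ccd18-Co fibroblasts (4 per group) was extracted with either of 2 column kits, made into libraries with NEBNext Ultra II and sequenced on a NextSeq500. Doses follow the labels, while passages of the study's text give a lower dose of IL-1B and a higher one of belinostat. For an assay of secreted protein the study gives a lower dose of GSK-J4. Its text also names fewer RNA replicates per group than the 4 libraries used here. The authors pseudoaligned the reads with kallisto 0.48.0 against hg38 (submitters' notes, which also name FastQC 0.11.9 and MultiQC 1.14). Deposited by the authors were estimated counts, 1 value per symbol and library, and the transcript annotation, the strand setting and the summing of transcripts to symbols are not given in the sources used here. The table holds 40663 symbols, of which 26907 have a count. Columns were matched to samples by name and rounded to whole numbers.

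Libraries held 14.4 to 19.5 M counts. DESeq2 1.42.0 (R 4.3.3; Wald test, design of group alone over all 16 libraries, median-of-ratios size factors, no filter before the fit, default independent filtering, unshrunken fold changes) compared GSK-J4 with vehicle, with unstimulated cells and with belinostat. Calls required an adjusted p under 0.05 (Benjamini-Hochberg, over all tested genes), and log2 fold changes are GSK-J4 minus the other group. Adjusted p-values in the text are from DESeq2 unless edgeR (4.0.16, with limma 3.58.1) is named. The alternatives were edgeR's quasi-likelihood test, TMM factors, a filter of 10 counts in at least 4 libraries, a fit of only the 2 groups compared, 2 surrogate variables (sva 3.50.0), leaving out each library, and, chosen after seeing the data, leaving out nuclear copies of mitochondrial genes. The scripts were tested on simulated data, where false calls made up a larger share of DESeq2's calls than the threshold allows and about the allowed share of edgeR's, so the DESeq2 counts may hold more false calls than the threshold implies. No pair of replicates was close enough to be repeat deposits of 1 library.

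Named genes were the 15 largest rises and falls among called genes with a mean of at least 50 normalized counts over the 8 libraries and no overlap between groups, the 10 most abundant called genes, every called member of a list, every member of the study's contractile and inflammatory programs, the H3K27 enzymes KDM6A, KDM6B, EZH1 and EZH2, and called genes beyond 1.5. The members and the lists were chosen with earlier results of these data known. Gene positions are from GENCODE and promoters from RefSeq, both on GRCh38.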

Additional observations from a re-analysis of the deposited data

Results flagged for a closer look

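In 9 of 126 groups of 4 libraries (2 groups for each of 63 genes), 1 library stood apart from the others of its group, and chance alone flags about 1 in 20 groups. GSK-J4 replicate 23 was high for ATF3 (155.4 normalized counts, others 103.4 to 108.0), EPAS1 (35890, others 32680 to 33120) and KIAA0319 (70.1, others 30.5 to 33.5). GSK-J4 replicate 24 was high for EPB41 (292.4, others 152.4 to 160.8). GSK-J4 replicate 22 was low for LDLRAD4 (165.9, others 235.7 to 242.1) and high for CXCL2 (45.05, others 21.4 to 25.2). Vehicle replicate 16 was high for CST1 (320.0, others 121.8 to 141.8) and low for FLNA (61330, others 67300 to 68290) and KDM6A (476.7, others 595.8 to 613.8).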

How the results depend on the processing

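Against vehicle, the 249 calls became 91 under edgeR, 542 in the fit of only the 2 groups and 418 with 2 surrogate variables, and 134 to 193 when 1 library was left out. The calls beyond 1.5 became 3 with the low-count filter and 4 to 10 when 1 library was left out. TMM factors gave 267 calls, the low-count filter 256 and the fit without nuclear copies of mitochondrial genes 237. In the inflammatory program MMP3 was the 1 call in the fit of only the 2 groups and with 2 surrogate variables, and the program's median ranged from -0.013 to 0.153 when 1 library was left out. The contractile program kept 7 to 8 calls and a median of 0.497 to 0.578 in those fits, and 6 calls under edgeR. When 1 library was left out, the calls against unstimulated cells ranged from 629 to 980 and those against belinostat from 1319 to 2143. For the 94 named genes, 1315 alternative values were computed, and none changed sign where the main or the alternative fit called the gene. Sign changes of genes called in neither fit were not counted. In 183 of the 1315 values a call was lost or the gene received no adjusted p, and in 2 a call was gained. The cause of these changes was not tested. No paired analysis was possible because the groups share no replicate numbers. KIAA0319 and RN7SL96P rest on few counts. RN7SL96P was not called with TMM factors, the low-count filter, only the 2 groups and the surrogate variables, where a missing adjusted p counted as no call.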

Other observations

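Genes outside the lists were called as well. All genes in this paragraph were chosen after their values were seen. They are given singly, and no group of them was tested. SPATA18 (0.43, SE 0.11), the DNA repair gene DDB2 (0.38, SE 0.08), FDXR (0.36, SE 0.10) and AEN (0.29, SE 0.07) were called higher. PDK4, which restrains pyruvate oxidation, went from 1297, 918, 1268 and 1506 to 2672, 1650, 2340 and 2078 (0.81, SE 0.17), and CPT1A, which admits fatty acids to mitochondria, rose by 0.29 (SE 0.07). ACACB, whose product inhibits that step, fell by 0.31 (SE 0.09). CARMN, a noncoding RNA of smooth muscle, rose by 0.43 (SE 0.11). SOCS1, a brake on cytokine signalling, rose by 0.83 (SE 0.18) and the interleukin 7 receptor gene IL7R fell by 1.00 (SE 0.30). CYP26B1, which breaks down retinoic acid, rose by 0.74 (SE 0.14).

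Of the 141 genes called higher than vehicle, 109 were also called higher than unstimulated cells and none lower, and 118 were called higher than belinostat and 1 lower. Of the 108 called lower, 67 were called lower than unstimulated cells and 1 higher, and 84 were called lower than belinostat and 1 higher. Over all tested genes, 536 of 15732 were called higher and 403 lower than unstimulated cells, and 885 of 14717 higher and 910 lower than belinostat. The genes were picked by the same 4 GSK-J4 libraries that enter each comparison. The shared direction is therefore partly set by that choice, and the counts are not independent of each other.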
